A study of Mus musculus with 6 samples.

Results

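The 10 genes described here make the replicative helicase, the sliding clamp and the deoxynucleotides that DNA synthesis consumes. They are Mcm2, Mcm3, Mcm4, Mcm5, Mcm6, Mcm7, Pcna, Rrm1, Rrm2 and Tyms. They were taken by gene symbol from the deposited table, where all 10 were present among 23281 genes.

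Nuclear RNA was followed by SLAM-seq, in which cells take up the uridine analogue 4-thiouridine (4sU), and iodoacetamide treatment makes the labelled bases read as C in place of T (T>C conversions). The cells were embryonic stem cells from a female mouse with a 129S X Cast strain background, and 6 libraries were made, 1 for each washout time of 0, 30, 60, 90, 120 and 150 min. All 6 cultures carried the same changes at Xist: on the 129S allele a TetOn promoter stood in place of the endogenous one, and a Bgl stem-loop had been put into the 3'-end of the gene. Their titles name the line BglHalo_Xist, and the other labels do not explain the Halo part. All were kept in 1 µg/ml doxycycline, for 17.5 to 20 h before label, during the 4 h pulse with 500 µM 4sU, and through the washout with 50 mM uridine, which the 0 min culture did not receive. There were no cultures without label or without doxycycline, and no replicates, so every test below asks whether 6 libraries follow a line in time. P-values therefore rest on the scatter of these libraries around that line, which may be technical. The slope fits pool this scatter in part over genes, so a p-value or standard error (SE) does not measure a gene's own scatter alone. The time of each column was inferred from its number in the table, as described under the processing.

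The proteins of Mcm2 to Mcm7 form a ring of related subunits that is loaded onto DNA at replication origins and later unwinds it as the core of the replicative helicase. PCNA is the clamp that holds DNA polymerases on their template. Ribonucleotide reductase, made of the large subunit RRM1 and the small subunit RRM2, turns ribonucleotides into deoxyribonucleotides, and thymidylate synthase (TYMS) makes the thymidine precursor dTMP. Genes of this kind are known targets of E2F transcription factors and are expressed mainly around the entry into and passage through S phase. Embryonic stem cells have a short first gap phase and spend much of their cycle in S phase.

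Because the 6 helicase genes are related, the stretch around the codons for the ATP-binding loop, which is among the best conserved parts of the family, is shown to see whether reads of 81 nt could be told apart between them. Each line is an 81-nt coding window of the mm10 build from the GENCODE M21 transcript, 5′ to 3′ on the gene's own strand, with the 24 nt of the ATP-binding (Walker A) codons in capitals.
Mcm2: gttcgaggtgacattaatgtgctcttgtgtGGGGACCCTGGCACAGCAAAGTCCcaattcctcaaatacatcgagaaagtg
Mcm3: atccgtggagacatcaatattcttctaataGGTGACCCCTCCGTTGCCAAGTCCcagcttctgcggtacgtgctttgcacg
Mcm4: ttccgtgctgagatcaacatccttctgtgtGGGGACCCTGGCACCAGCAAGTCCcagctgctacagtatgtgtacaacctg
Mcm5: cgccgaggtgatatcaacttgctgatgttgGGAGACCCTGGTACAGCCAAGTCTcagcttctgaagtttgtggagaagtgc
Mcm6: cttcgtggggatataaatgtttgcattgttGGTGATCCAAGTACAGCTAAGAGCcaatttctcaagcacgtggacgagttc
Mcm7: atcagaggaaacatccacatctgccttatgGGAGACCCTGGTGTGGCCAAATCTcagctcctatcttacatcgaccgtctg
The Mcm2 window lies in exon 10 of 16 at chr6:88887876-88887956 (minus strand), the Mcm4 window in exon 11 of 16 at chr16:15629524-15629604 (minus strand), and the Mcm5 window in exon 9 of 17 at chr8:75119276-75119356 (plus strand). The others are split by an intron: Mcm3 over exons 7 and 8 of 17 (chr1:20812646-20812695 and chr1:20812961-20812991), Mcm6 over exons 8 and 9 of 17 (chr1:128344423-128344438 and chr1:128345872-128345936), and Mcm7 over exons 9 and 10 of 15 (chr5:138167561-138167634 and chr5:138167841-138167847), all on the minus strand. Over the 15 pairs of genes the windows differed at 27 (Mcm4 and Mcm5) to 42 (Mcm6 and Mcm7) of 81 positions, and 12 to 20 of the 24 capital letters were the same. An exact read over a whole window therefore matched no other of these 6 genes, and further relatives were not compared. The windows held 20 to 24 T positions, where a T>C conversion can be seen.

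The promoters of the same genes were searched for the E2F-type words TTTCCCGC, TTTCGCGC, TTTGCCGC and TTTGGCGC on both strands, in the 300 bases from 250 before to 50 after each RefSeq start (GRCm38.p6). Of the 9 genes with a promoter sequence, all but Mcm4, 4 held a word (Mcm3, Mcm5, Mcm6 and Mcm7), against 2.6% of 27025 genes. Counted by promoter, 4 of 10 held a word, against 2.26% of 32851. The Mcm7 promoter at chr5:138171217-138171516 held none, and the words of Mcm3 began after the start, at positions 19 and 38. The word CCAAT, or ATTGG on the other strand, stood in 8 of the 9, all but Tyms, and in 41.1% of all genes. Mcm5 and Mcm6 are shown because their overlapping words form the same run of 12 letters on opposite strands, a run that 4 of the 27025 genes hold and that was noticed after the search. Capitals mark the E2F-type words, and a match of letters is a description and not a measured binding site.
Mcm5: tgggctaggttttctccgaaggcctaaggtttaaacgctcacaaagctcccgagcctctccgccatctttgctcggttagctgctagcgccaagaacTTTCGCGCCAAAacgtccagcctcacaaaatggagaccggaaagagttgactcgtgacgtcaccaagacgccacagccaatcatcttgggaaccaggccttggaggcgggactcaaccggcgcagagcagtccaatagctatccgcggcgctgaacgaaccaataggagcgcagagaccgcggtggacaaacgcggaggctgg
Mcm6: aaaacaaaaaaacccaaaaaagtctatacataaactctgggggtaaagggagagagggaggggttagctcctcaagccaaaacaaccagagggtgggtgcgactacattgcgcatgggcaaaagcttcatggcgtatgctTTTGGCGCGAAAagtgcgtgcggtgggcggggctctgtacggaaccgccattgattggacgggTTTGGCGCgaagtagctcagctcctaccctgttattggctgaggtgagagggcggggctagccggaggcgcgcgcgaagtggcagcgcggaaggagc
The Mcm5 stretch is chr8:75109259-75109558 on the plus strand, and its run TTTCGCGCCAAA begins at position -153 from the start. The Mcm6 stretch is chr1:128359656-128359955 on the minus strand, with the run TTTGGCGCGAAA beginning at position -110 and a further word at -47.

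The libraries held 18558073 to 28535162 reads. They did not lose label evenly: T>C conversions over all genes were 4.05%, 2.69%, 4.11%, 2.57%, 1.55% and 1.17% of covered T positions at 0, 30, 60, 90, 120 and 150 min, so that the 30 min library stood below the 60 min one. The same step up was seen in all 10 genes and in 94.2% of the 11462 genes tested. The labelled share of a gene's reads, which the authors estimated per library, had medians over the genes tested of 46.8%, 45.8%, 44.5%, 39.3%, 27.7% and 21.1% at the same times and did not show that step. All 10 embryonic stem cell markers were above 10 CPM (counts scaled to library size) in every library, with sums of 2957 to 3437 CPM, the lowest Lin28a. Of 12 markers of fibroblast feeder cells, which had been removed by pre-plating, 7 were above 10 CPM in every library and the sum was 2583 to 4022 CPM, mostly Fn1. Without Fn1 the feeder sum was 335 to 514 CPM, Lum was at 0 in 1 library, and the part of these cells in the results was not tested.

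The labelled share of Tyms and of Rrm2 fell over the washout, while those of the 6 Mcm genes, Pcna and Rrm1 did not pass the test in either direction. Of the 10 genes, 2 fell and 0 rose, against 52.3% of all 11462 genes tested that fell and 1.19% that rose. The median decay rate, the fall of the log labelled share per hour (natural log), was 0.09 per h for the 10 genes and 0.25 per h for all genes tested. The 10 genes received 951 to 11944 reads per library, and the 5 to 95% posterior range of a labelled share was 1.3 to 5.01 percentage points wide. The count of 2 was 1 without the 30, the 120 or the 150 min library, since the call of Rrm2 was then lost. The RNA came from nuclei, so loss of label by decay and by export cannot be told apart.

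The labelled share of Tyms was 51.9%, 33.4%, 38.4%, 25.2%, 18.2% and 14.9% at 0, 30, 60, 90, 120 and 150 min. All 5 later libraries were below the 0 min one, and the 60 min library stood above the 30 min one. The decay rate was 0.48 ± 0.09 per h (SE), which makes the half-life 85.9 min (72.2 to 106 min at ± 1 SE) with an adjusted p of 0.000397 from limma, and the call held without each library in turn. Among all genes tested, 25.7% had a faster decay rate. Tyms also had the fewest reads of the 10 genes, 951 to 1560 per library, and a processed pseudogene (Tyms-ps) with which reads may be shared.

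Rrm2, the small subunit of ribonucleotide reductase, whose level is known to follow the cell cycle, started with the highest labelled share of the 10. It held 74.5%, 69.8%, 71.6%, 62.8%, 47.5% and 38.7% at 0, 30, 60, 90, 120 and 150 min, with most of the loss after 60 min. All 5 later libraries were below the 0 min one. The decay rate was 0.26 ± 0.09 per h, which makes the half-life 159.5 min (119 to 243 min at ± 1 SE) with an adjusted p of 0.0221 from limma. This half-life takes a constant rate from 0 to 150 min, whereas the share was 69.8% to 74.5% up to 60 min and fell after it. With 1 library left out, limma's adjusted p was 0.0666 (30 min left out), 0.0940 (120 min) and 0.222 (150 min), and under 0.05 for the other libraries.

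Rrm1, the large subunit of the same enzyme, did not pass the test. Its labelled share was 29.8%, 32.8%, 26.3%, 33.2%, 31.3% and 26.6% at the 6 times, with the lowest values at 60 and 150 min and the highest at 90 and 30 min. The decay rate was 0.03 ± 0.09 per h (95% interval -0.16 to 0.22; limma adjusted p = 0.824). For a straight line over the 6 times, the highest rate in that interval corresponds to a half-life of 192 min. The Rrm1 locus overlaps Gm45399 on the same strand.

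Pcna, the sliding clamp, held 51.5%, 50.5%, 46.7%, 52.5%, 37.0% and 33.8% at 0, 30, 60, 90, 120 and 150 min. The first 4 libraries lay between 46.7% and 52.5%, above the last 2. The decay rate was 0.17 ± 0.09 per h (95% interval -0.02 to 0.36; limma adjusted p = 0.131). Processed pseudogenes of Pcna (Pcna-ps1 and Pcna-ps2) may share its reads.

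Among the helicase subunits, Mcm3 had the highest labelled share in every library, and Mcm6 the lowest from 0 to 120 min, with Mcm7 lowest at 150 min. The labelled share of Mcm3 was 64.3%, 65.5%, 63.8%, 64.2%, 54.6% and 46.0% at the 6 times, level to 90 min and lower in the last 2 libraries. That of Mcm2 was 44.4%, 46.3%, 45.04%, 49.0%, 38.6% and 33.8%, with the same 2 libraries lowest. The decay rate of Mcm3 was 0.13 ± 0.09 per h (95% interval -0.06 to 0.31, limma adjusted p = 0.242). That of Mcm2 was 0.10 ± 0.09 per h (95% interval -0.08 to 0.29, limma adjusted p = 0.347). Mcm7 held 32.6%, 33.5%, 29.4%, 32.6%, 30.3% and 25.3%. Its rate was 0.08 ± 0.09 per h (95% interval -0.10 to 0.27, limma adjusted p = 0.450). The intervals of Mcm2, Mcm3 and Mcm7 hold the rate of Rrm2 (0.26 per h) and the median of all genes tested (0.25 per h). A slower loss than these was thus not shown for them. Without the 150 min library the rates were 0.07 per h for Mcm3, 0.04 per h for Mcm2 and 0.03 per h for Mcm7. The Mcm7 gene also holds Mir25, Mir93 and Mir106b, and Cops6 and Ap4m1 overlap it on the other strand, so its reads may include theirs.

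Mcm4, Mcm5 and Mcm6 ended the washout close to or above their starting share. Mcm4 held 31.9%, 38.3%, 30.6%, 42.6%, 36.3% and 30.4% at 0, 30, 60, 90, 120 and 150 min. Mcm5 held 44.8%, 49.7%, 42.3%, 54.1%, 48.4% and 44.0%. Mcm6 held 21.9%, 27.5%, 19.9%, 31.1%, 27.8% and 25.6%. In each of them the 90 min library was the highest, and the 60 min library was the lowest for Mcm5 and Mcm6 and next to the lowest for Mcm4. The decay rate was 0.0039 ± 0.093 per h for Mcm4 (limma adjusted p = 0.977). It was -0.0047 ± 0.089 per h for Mcm5 (adjusted p = 0.971) and -0.072 ± 0.094 per h for Mcm6 (adjusted p = 0.551, both limma), where a negative rate stands for a share that is higher later. For a straight line from 0 to 150 min, the fastest loss inside the 95% intervals corresponds to half-lives of 206 min for Mcm4, 226 min for Mcm5 and 324 min for Mcm6. Each of these shares fell from 90 to 150 min, which such a line does not follow. These half-lives are thus no limit on the loss after 90 min.

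**Figure D1:**
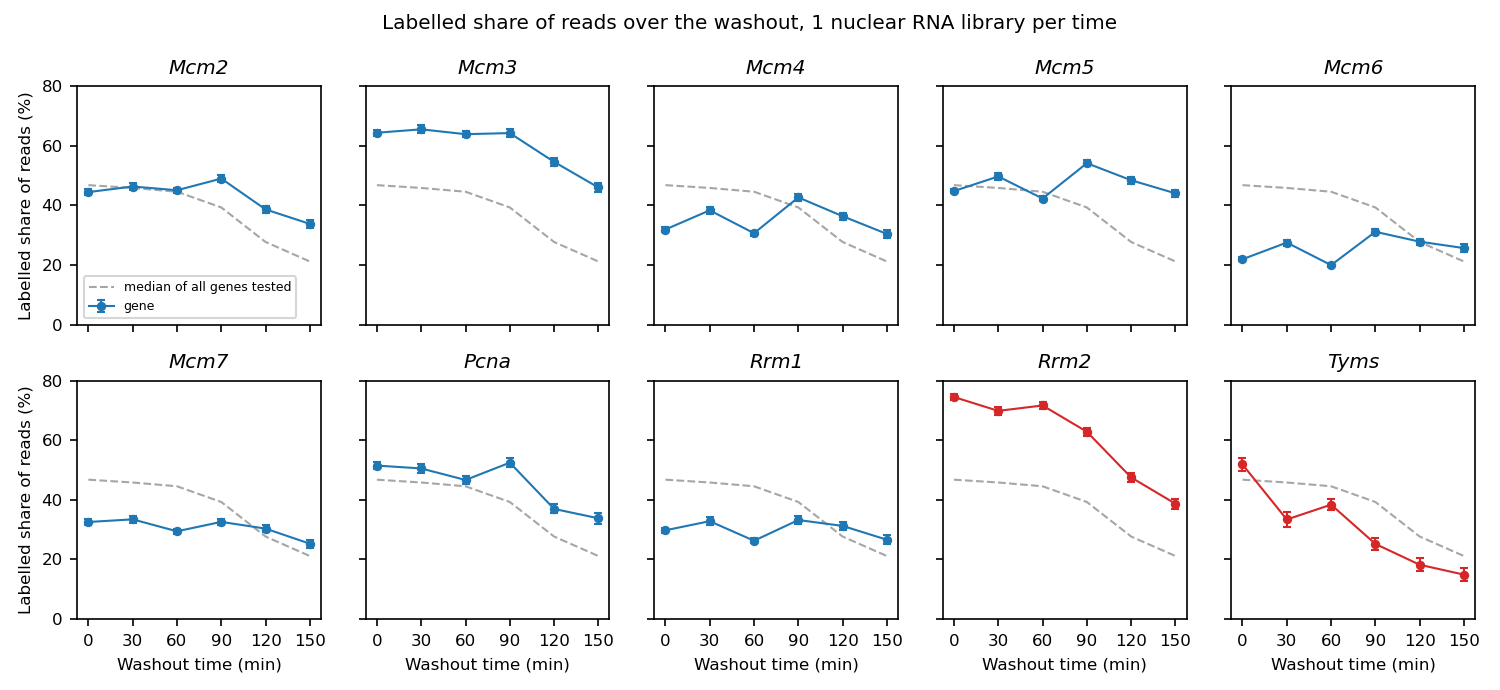
Labelled share of reads (%) against washout time (min) for each gene, 1 library per time; bars are the authors' posterior 5 to 95% range and the dashed line is the median of the 11462 genes tested. Rrm2 and Tyms (red) passed the test for a decline, and Mcm6 stayed between 19.9% and 31.1%.

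A zigzag of the labelled share between neighbouring times was shared by the 6 Mcm genes, Pcna and Rrm1. From 30 to 60 min it ran against the T>C rate, which was higher at 60 min in all 10 genes. The share at 60 min was below that at 30 min in 8 of 10 genes and in 52.8% of the genes tested, and the share at 90 min was above that at 60 min in 8 of 10 and in 45.3%. In both steps the exceptions were Rrm2 and Tyms. With 1 library per time, the state of a culture and the handling of its library cannot be told apart.

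The T>C rate, the share of covered T positions read as C, uses none of the authors' mixture model and moved with the library-wide steps. It fell for 5 of the 10 genes (Mcm2, Mcm3, Pcna, Rrm2 and Tyms) and rose for 0, against 66.9% of 11459 genes that fell. The median rate of decline was 0.36 per h for the 10 genes and 0.51 per h for all genes tested. These counts rest on single libraries: 2 of the 10 genes passed with the 0 min library left out, 2 with 120 min left out and 0 with 150 min left out. For the labelled share the median rates were slower, 0.09 per h for the 10 genes and 0.25 per h for all genes tested. A T>C rate counts conversions per covered position, so its half-life is not that of the RNA alone. The reason for the faster decline was not tested.

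Tyms had the lowest T>C rate at the end of the washout. Its rate was 5.09%, 2.22%, 3.93%, 1.99%, 1.14% and 0.828% at 0, 30, 60, 90, 120 and 150 min, where the last value rests on 174 conversions at 21020 covered positions (95% Wilson interval 0.714 to 0.960%, for counting error only). Apart from the 60 min library, each library was lower than the one before. The decline corresponded to 61.9 min as half-life of the T>C rate (49.4 to 82.8 min at ± 1 SE, adjusted p = 0.002 in limma). Without the 150 min library limma's adjusted p was 0.0585.

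Rrm2 had T>C rates of 7.78%, 4.68%, 8.12%, 4.33%, 2.34% and 1.75% at the same times. The 0 and 60 min libraries were the high ones. The half-life of the T>C rate was 71.6 min (55.4 to 101.3 min at ± 1 SE, adjusted p = 0.00566 in limma). Without the 150 min library limma's adjusted p was 0.127. The T>C rate of Mcm2 declined with a half-life of 107 min (adjusted p = 0.0481, limma), that of Mcm3 with 96.0 min (adjusted p = 0.0278, limma) and that of Pcna with 98.2 min (adjusted p = 0.0298, limma). All 3 calls were lost without the 0, the 120 or the 150 min library. That of Mcm2 was also lost without the 90 min library (limma adjusted p = 0.0641), with T positions covered by both mates (adjusted p = 0.0560, limma) and with a read minimum of 10 (adjusted p = 0.0707, limma).

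At the other end, Mcm6 had T>C rates of 2.27%, 2.02%, 2.27%, 2.35%, 1.58% and 1.35% at 0, 30, 60, 90, 120 and 150 min. The first 4 libraries lay close together and the last 2 were lower. The rate of decline was 0.19 ± 0.16 per h (limma adjusted p = 0.284). Mcm4, Mcm5, Mcm7 and Rrm1 had limma adjusted p between 0.0773 and 0.182.

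Set against the T>C rate over all genes of the same library, Rrm2 and Tyms stood apart from the other genes in direction. The division takes out a library-wide step only for a gene that follows it, and otherwise writes the step in reverse. The ratio at 150 min was above that at 0 min in 8 of 10 genes and in 45.5% of the genes tested, and below it for Rrm2 and Tyms. For Mcm6 the ratio was 0.559, 0.748, 0.553, 0.913, 1.02 and 1.16 at 0, 30, 60, 90, 120 and 150 min, below the average label of its library to 90 min and above it in the last 2 libraries. Its own T>C rate was 2.27%, 2.02%, 2.27% and 2.35% from 0 to 90 min, so the early zigzag of the ratio came mostly from the rate over all genes. For Mcm5 it was 1.21, 1.36, 1.31, 1.68, 1.83 and 1.98. Tyms did the reverse, with 1.255, 0.825, 0.956, 0.775, 0.736 and 0.709. For Rrm2 the ratio was 1.92, 1.74, 1.98, 1.69, 1.51 and 1.50, above 1 in every library. These ratios are a description of 1 library per time, with no test.

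**Figure D2:**
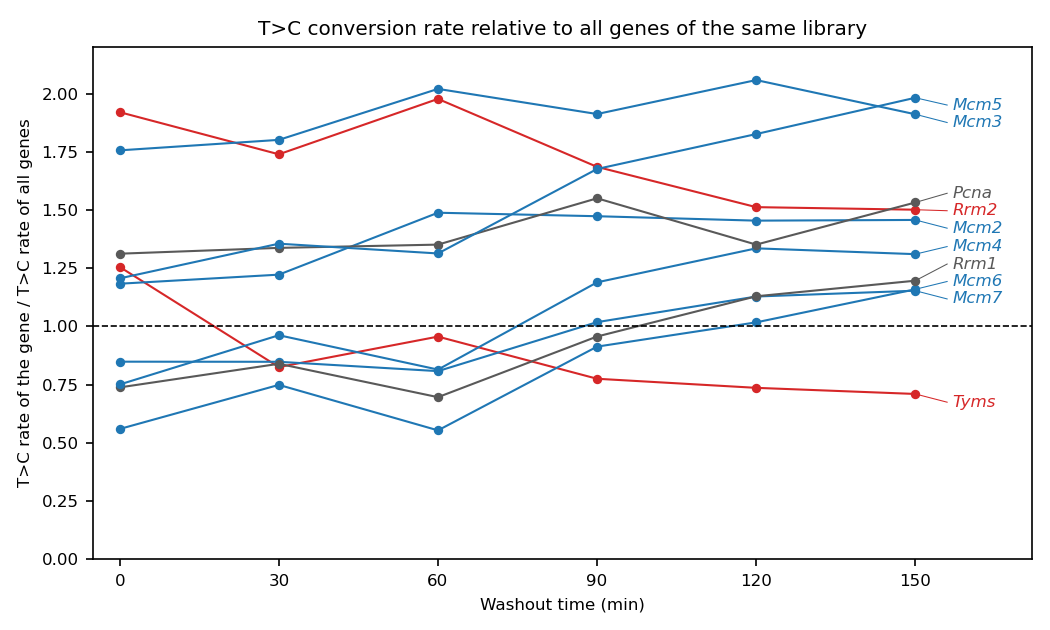
T>C rate of each gene divided by the T>C rate over all genes of the same library (ratio, linear axis) against washout time (min), 1 library per time. The Mcm genes (blue), Pcna and Rrm1 (grey) ended above their ratio at 0 min, as for Mcm6 with 0.559 at 0 min and 1.16 at 150 min, while Tyms and Rrm2 (red) ended below it.

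Differences between genes were tested as the slope of the difference of their log labelled shares, since a deviation of a library that both genes share drops out. Of 45 pairs, 23 had an unadjusted exact two-sided permutation p under 0.05 over the 720 orderings of the times, and 0 pairs passed after Benjamini-Hochberg adjustment. The smallest exact p was 0.0111 and the smallest adjusted p 0.0789 (permutation test, 6 libraries), where the smallest exact p that 6 libraries allow is 0.00278. With T>C rates, Mcm2 against Rrm2 and Mcm2 against Tyms had the smallest exact p that the design allows and an adjusted p of 0.0625 (permutation test), and again 0 pairs passed. A pair at that smallest p could pass only if at least 3 of the 45 pairs shared it, or more pairs had a slightly larger one, so the lack of calls says little about whether these genes differ. Genes on opposite sides of the threshold for a decline, such as Rrm2 and Rrm1, were not shown to differ by this test.

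**Figure D3:**
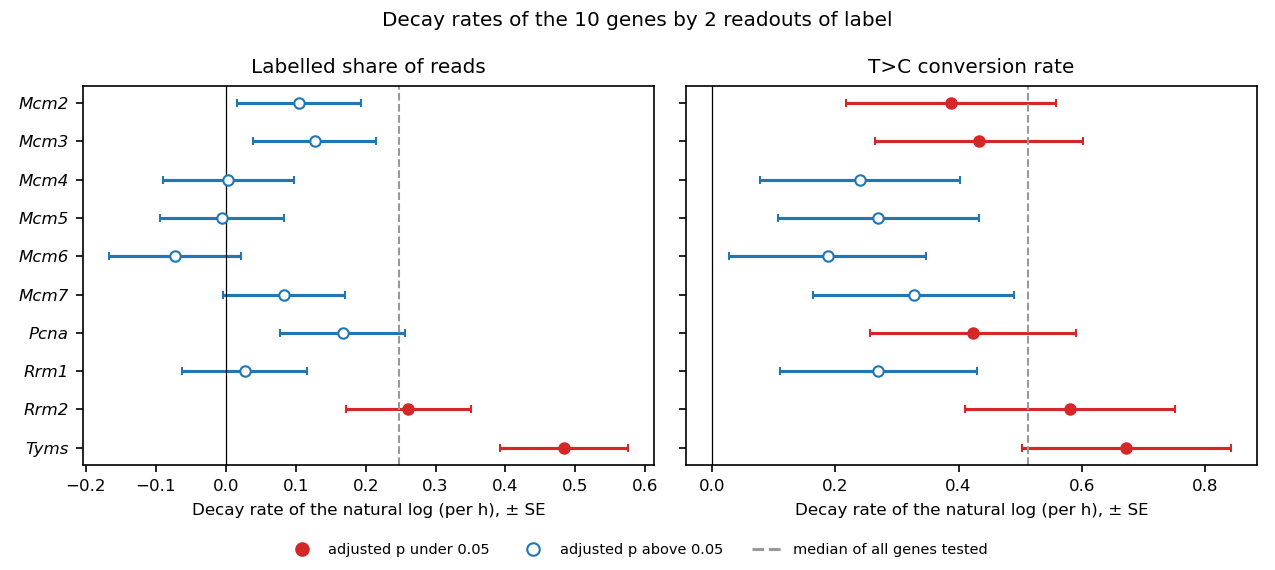
Decay rate per h of the natural log of the labelled share (left) and of the T>C rate (right) for each gene, with bars of ± 1 SE from the fit to 6 libraries; filled points passed a limma adjusted p of 0.05 and dashed lines are the medians of all genes tested. Tyms at 0.48 per h is the one gene above the dashed line of 0.25 per h by more than its SE on the left. On the right the SE bars of adjacent rows overlap, while those of Mcm4 and Mcm6 end below those of Rrm2 and Tyms.

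Label at the end of the pulse gives a second view of turnover, from uptake before the washout. With a steady state over the 4 h pulse assumed, the share at 0 min corresponds to half-lives of 122 min for Rrm2, 161 min for Mcm3, 228 min for Tyms and 230 min for Pcna. Mcm5 came to 280 min, Mcm2 to 283 min, Mcm7 to 422 min and Mcm4 to 434 min. Rrm1 (471 min) and Mcm6 (673 min) had the slowest uptake. Rrm2 and Tyms were thus in the order Rrm2 before Tyms by uptake and Tyms (85.9 min) before Rrm2 (159.5 min) by washout. The median over the 10 genes was 282 min, and 247 min if label began 30 min late. These values come from 1 library and carry no test.

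No change in the amount of nuclear RNA of these genes was detected. None of the 10 passed edgeR's quasi-likelihood test for a slope of total reads on time, with 0 at an unadjusted p under 0.05 as well, and 0% of the 15743 genes tested passed (1813 rising and 1603 falling at an unadjusted p under 0.05). DESeq2 called 275 rising and 309 falling genes, with 0 of the 10 among them. The slopes of the 10 lay between -0.13 and 0.01 log2 per h, with edgeR adjusted p of 0.266 to 0.973. They were negative for 8 of 10, against 8038 of the 15743 genes tested. In bulk RNA, fewer cells that express a gene and less RNA per cell cannot be told apart.

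Levels were compared between genes per length, as CPM per kb of deposited length. The median over the 6 libraries was 121 for Mcm5, 95.4 for Pcna, 90.5 for Mcm7, 86.7 for Rrm2, 83.1 for Mcm2 and 78.3 for Mcm3. It was 65.9 for Mcm6, 63.7 for Mcm4, 37.5 for Rrm1 and 13.7 for Tyms. Of the neighbours in this order, the ranges over libraries were apart for Mcm5 and Pcna, for Mcm4 and Rrm1, and for Rrm1 and Tyms, and overlapped for the rest. Compared within each library, Mcm3 was still above Mcm6 in 6 of 6. Pcna was above Mcm7, and Mcm2 above Mcm3, in 5 of 6. Rrm2 was above Mcm2, and Mcm6 above Mcm4, in 4 of 6, and Mcm7 above Rrm2 in 2 of 6. Mcm5 ranged over 104 to 125, Rrm1 over 36.0 to 41.6 and Tyms over 12.5 to 15.4.

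The helicase subunits, which stand at 1 copy each in the ring, were not level in nuclear RNA. Within each library the highest, always Mcm5, was 1.78 to 1.99 times the lowest, which was Mcm4 at 0 to 90 min and Mcm6 at 120 and 150 min. For the 2 subunits of ribonucleotide reductase the level per length of Rrm2 was above that of Rrm1 in every library, 80.9 to 102 against 36.0 to 41.6. Before division by length (5475 nt for Rrm1, 2193 nt for Rrm2), Rrm1 had more CPM at 0, 60, 120 and 150 min. Rrm2 had more at 30 and 90 min. Mcm6 likewise had more CPM than Mcm4 at 120 min (253 against 223) and at 150 min (261 against 239). Length in the deposited table sets these values, and the transcripts it stands for are not named there.

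**Figure D4:**
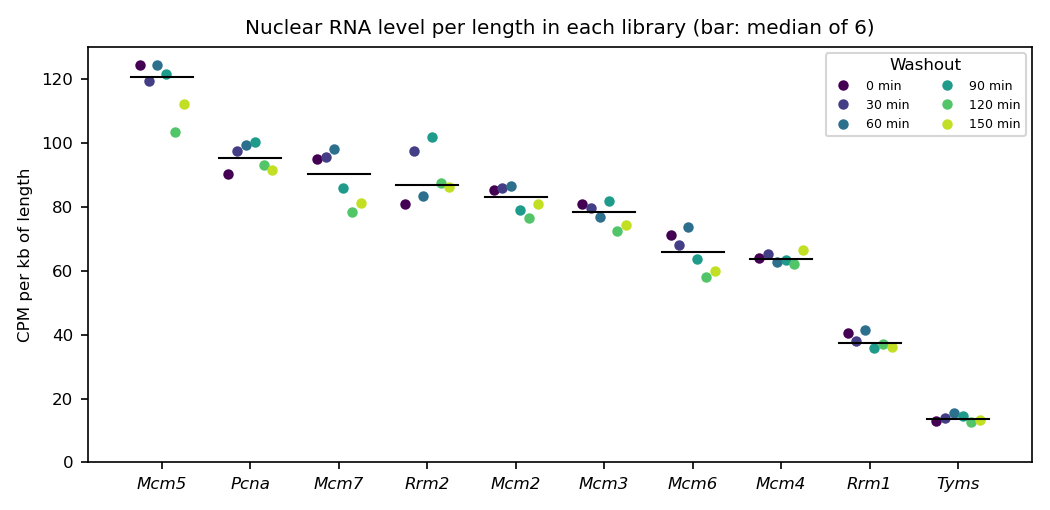
CPM per kb of length (linear axis from 0) of each gene in each of the 6 libraries, coloured by washout time, with a bar at the median; genes are in the order of their medians. Mcm5 stands highest at a median of 121 and Tyms lowest at 13.7, and the genes from Pcna to Mcm4 form a run in which neighbours overlap.

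The 10 genes were set beside lists of other replication and cell cycle genes, all of whose members were tested. In the licensing list, which holds the factors that load the helicase at origins, the licensing inhibitor Gmnn and the relatives and partners Mcm8, Mcm9, Mcm10 and Mcmbp, 10 of 13 genes fell and 0 rose, with a median decay rate of 0.31 per h. The shortest half-lives were those of the loading factors Cdt1 (52.7 min) and Cdc6 (52.8 min), and the longest called ones those of Mcm8 (188 min) and Orc6 (161 min). Mcm8, Mcm9 and Mcm10, which are not loading factors, were among the 10, while Orc2, Gmnn and Mcmbp did not pass. The 6 Mcm genes held 21.9% to 64.3% at 0 min and 25.3% to 46.0% at 150 min, against 88.7%, 61.7%, 77.6%, 38.9%, 21.3% and 12.2% at 0, 30, 60, 90, 120 and 150 min for Cdt1.

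Genes of origin firing and the replisome showed 8 of 14 that fell and 0 that rose, at a median of 0.37 per h. The GINS subunit Gins3 (44.3 min) and Ticrr (49.1 min), which activate the loaded helicase, were the shortest, and Wdhd1 (99.95 min) and Timeless (129 min) the longest. The other GINS subunits Gins1, Gins2 and Gins4 did not pass (limma adjusted p 0.853, 0.812 and 0.508). Of 25 genes for polymerases, clamp loading and the lagging strand, 9 fell and 2 rose, at a median of 0.08 per h. The histone chaperone subunit Chaf1a (69.7 min) and the flap nuclease Fen1 (79.5 min) were the shortest there, and Rfc3 (148 min) and Pola1 (144 min) the longest. The 2 that rose were Rpa3 and Pold4, small subunits of the single-strand binding protein and of polymerase delta.

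In the other nucleotide supply genes 7 of 27 fell and 0 rose, at a median of 0.06 per h. The kinases Dck (92.5 min) and Dtymk (119 min), which phosphorylate deoxynucleosides and dTMP, were the shortest, and the pyrimidine synthesis enzymes Umps (181 min) and Dhodh (163 min) the longest. Of 17 genes of G2 and M phase 6 fell and 0 rose, at 0.11 per h, from Aurka (84.3 min) and Ccnb1 (132 min) to Aurkb (154 min) and Plk1 (175 min). All half-lives in these lists are from the labelled share, for genes with a limma adjusted p under 0.05.

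Thus 2 of the 10 genes fell, against 34 of 79 genes in the 4 replication and nucleotide lists together and 52.3% of all genes tested. Several list counts rest on the last libraries. Without the 150 min library 5 licensing genes, 5 polymerase genes, 2 nucleotide supply genes, 1 G2 and M gene and 3582 of all 11462 genes fell. Without the 120 min library 4 nucleotide supply genes and 3 G2 and M genes fell. The 2 polymerase-list genes that rose were 0 without the 0 or the 150 min library and 1 without the 30, 90 or 120 min library. That count was also 0 on the logit scale and as labelled abundance, and 1 with a read minimum of 10 and with posterior weights.

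**Figure D5:**
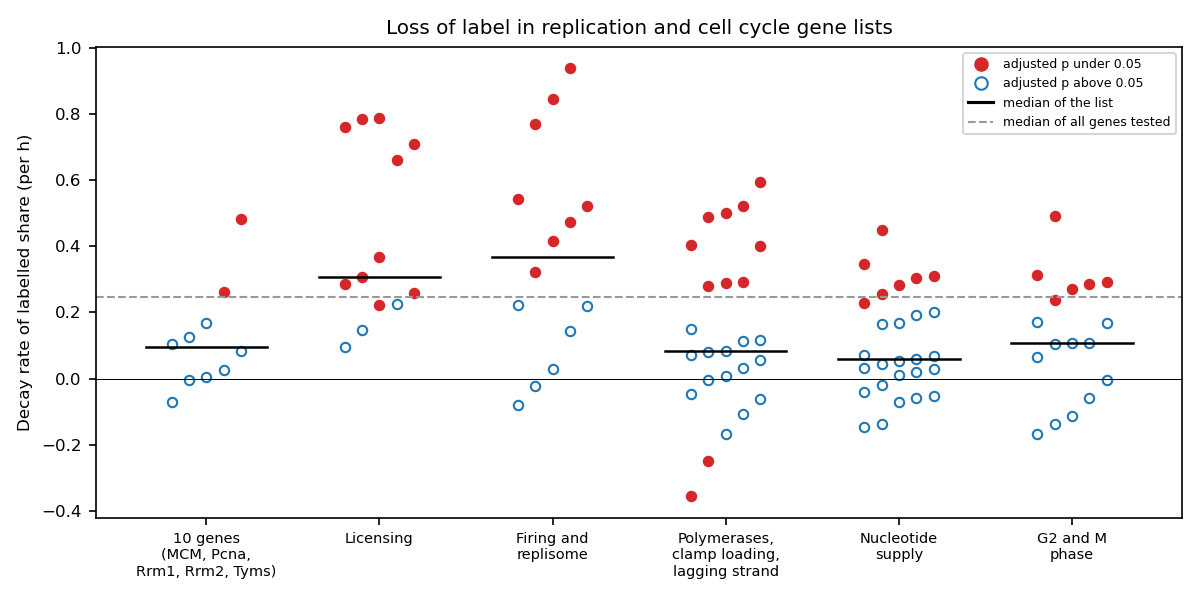
Decay rate of the labelled share (per h) of every gene in each list, with a bar at the list's median and a dashed line at the median of all genes tested (0.25 per h); filled points passed a limma adjusted p of 0.05. The medians of the 10 genes (0.09 per h) and of the nucleotide supply list (0.06 per h) lie below the dashed line, and those of licensing (0.31 per h) and firing (0.37 per h) above it.

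The genes whose profile of labelled share was nearest to the median profile of the 10, by root mean square difference of the natural log over the 6 libraries, were Sf3a3 (0.0392), Mapkap1 (0.0448), Polr2j (0.0451), Fam129b (0.0471) and Pus7 (0.0482), among 7530 candidates that averaged 500 reads or more. None of these 5 passed the test for a decline (limma adjusted p 0.227 to 0.355). Sf3a3, a splicing factor subunit, held 42.1%, 43.5%, 38.3%, 45.6%, 34.96% and 32.3% at the 6 times. Of the 10 genes themselves Mcm2 lay nearest to the median profile, at 0.0728, and Tyms (0.501) and Mcm6 (0.493) farthest.

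All coordinates are in mm10 with the GENCODE M21 annotation, and all 10 genes are protein-coding. Mcm2 (ENSMUSG00000002870) is at chr6:88883474-88898780, Mcm3 (ENSMUSG00000041859) at chr1:20802968-20820312, Mcm4 (ENSMUSG00000022673) at chr16:15623897-15637400 and Mcm6 (ENSMUSG00000026355) at chr1:128331590-128359664, all on the minus strand. Mcm7 (ENSMUSG00000029730) is at chr5:138164583-138172422, Tyms (ENSMUSG00000025747) at chr5:30058202-30073617 and Pcna (ENSMUSG00000027342) at chr2:132249162-132253314, also on the minus strand. On the plus strand are Mcm5 (ENSMUSG00000005410) at chr8:75109569-75128439, Rrm1 (ENSMUSG00000030978) at chr7:102441695-102469771 and Rrm2 (ENSMUSG00000020649) at chr12:24708241-24714146.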

How the data were processed

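SLAM-seq was done on nuclear RNA of 6 cultures, with 1 µg RNA per stranded total RNA library read as paired ends of 81 nt, per the labels' protocols. Reads were aligned with STAR 2.5.2b to mm10, per the submitters' processing notes; the program behind the per-gene table, its annotation release, its use of strand and the conversion rate behind the labelled share are not given in any source used here. Per the file headers, the authors deposited read counts per gene, not normalized, counts of T>C conversions and covered T positions (whole numbers with 4 significant digits), a labelled fraction per gene and library (posterior mean, mode, 5% and 95% quantiles), and score columns of the posterior that were not used. Columns are headed by a number from 3 to 15 or by none. Each number was taken as the title's washout minutes with the final 0 dropped, and none as 0 min. This reading is inferred, and every slope rests on it.

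Slopes on time were fitted with limma 3.58.1 to the natural log of the labelled fraction (for genes that averaged 100 reads or more, with values above 0 throughout) and of the T>C rate, and with edgeR 4.0.16 (quasi-likelihood, TMM, filterByExpr) to counts, each over all genes, with Benjamini-Hochberg adjustment, a threshold of 0.05 and 4 residual degrees of freedom. Both limma (eBayes) and edgeR drew each gene's variance toward a value shared over genes. Their SE and p-values thus do not come from a gene's own 6 libraries alone. Half-life is ln 2 over the decay rate. It takes a constant rate over 0 to 150 min, although the median share of all genes tested fell mostly after 60 min. Half-lives from the washout thus average over a flatter early part and a steeper late part where a gene has both. The fits were first tested on simulated data. Pairs of genes had exact permutation tests. Alternatives were each library left out, the 30 and 60 min libraries left out together, the posterior mode, logit scale, other read minimums, posterior weights, labelled abundance, both-mate T>C rates, a linear T>C scale, other count scalings and DESeq2 1.42.0. Named genes are the 10, then in each list the 2 shortest and 2 longest half-lives with a called decline, then the 5 nearest profiles. Lin28a, Fn1, Lum, Rpa3, Pold4, Gmnn, Orc2, Mcm9, Mcm10, Mcmbp, Gins1, Gins2 and Gins4 were named after their values were seen. The 10 genes and the lists were chosen with earlier results of these data known. Of all gene IDs, 99.75% matched GENCODE M21; Python 3.11.15 was used for sequences and tables. Total reads per library, 18558073 to 28535162, set the counting error.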

Additional observations from a re-analysis of the deposited data

How the results depend on the processing

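No paired analysis was possible because the 6 times were sampled once each. Of the results recomputed under alternatives that left out no single library, 382 held, 38 moved, 5 reversed, 3 gained and 9 lost a call. A rate held if its direction and side of the threshold stayed, and a count if it stayed within a set fold range. Thus 9264 genes with a falling T>C rate, without both the 30 and 60 min libraries, counted as held against 7664. Many of the counts were 0 in the fit to all libraries, such as those of total reads. With 1 library left out, 349 held, 52 moved, 14 reversed, 2 gained and 15 lost a call. The decline of Tyms in labelled share passed limma's test in every alternative run. The count of the 10 genes that fell in labelled share, 2 in the fit to all libraries, was 1 without both the 30 and 60 min libraries, 1 with posterior weights and 1 to 2 with 1 library left out; Rrm2 was the gene lost (limma adjusted p = 0.0608 without both libraries and 0.175 with weights). For T>C rates the count of 5 was 8 without both libraries, 0 on the linear scale, where 0 of all genes passed, and 0 to 7 with 1 library left out. Over all genes, the T>C rate of 2712 fell without the 150 min library, against 7664 with all libraries. Without the 60 min library edgeR called 778 rising and 635 falling genes in total reads, and none of the 10. The median uptake half-life was 246.6 min if label began 30 min late. Rates near 0 changed sign: Mcm4 was -0.0050 per h without both libraries, -0.0328 with weights and -0.0738 to 0.0586 with 1 library left out; Mcm5 was 0.0507 and Mcm6 0.0141 per h as labelled abundance, and with 1 library left out Mcm5 was -0.0483 to 0.0214 and Rrm1 -0.0216 to 0.0493. Slopes of total reads also changed sign, in log2 per h: Pcna 0.0082 without both libraries, and with 1 library left out Pcna -0.0623 to 0.0270, Mcm4 -0.0249 to 0.0233, Rrm2 -0.0652 to 0.0608 and Tyms -0.0964 to 0.0077. With posterior weights 2949 of all genes, 3 polymerase-list, 1 nucleotide supply and 0 G2 and M genes fell, and as labelled abundance 3 G2 and M genes fell. The 136 of all genes whose labelled share rose were 56 to 230 with 1 library left out, 33 as labelled abundance and 56 on the logit scale. The cause of these shifts was not tested.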
